A study of Drosophila melanogaster with 3 samples.

Results

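GFP-tagged CG12071 had 551 thresholded peaks between genes and away from any promoter in fly embryos, beside 3710 thresholded peaks elsewhere, so that intergenic peaks made up 12.9% of the list (95% Wilson interval 12.0 to 14.0%). A peak was counted here when its summit fell in no annotated gene and farther than 500 bp from every protein-coding transcription start site (TSS) and every start of an ncRNA gene, with Ensembl release 115 as the annotation. Within the thresholded list the members were chosen by position alone. That list holds the entries with the highest signal of the pooled list, so a peak had to be that strong to be a member. Bases that meet the same position rule, called eligible bases below, make up 27.3% of the chromosome arms, or 36.4 Mb.

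The material came from a transgenic Drosophila melanogaster line, CG12071-GFP, that carries CG12071 with GFP fused to its C-terminus. Embryos of mixed sex were collected at 12 to 24 h, and chromatin immunoprecipitation followed by sequencing (ChIP-seq) was done in 3 biological replicates. There was no second genotype, stage or treatment, so every comparison is between kinds of peaks or between replicates. The chromatin came from whole embryos, in which a site bound in few cells and a site bound weakly in many cells cannot be told apart.

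Sequence between genes in the fly holds enhancers, silencers and insulators, short elements where transcription factors bind and act on promoters at a distance. Genes for developmental transcription factors are known for long stretches of such sequence, with separate elements for separate tissues. In ChIP-seq a peak is a stretch with more sequenced fragments than its surroundings, and its summit is the base with the most.

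The sequences that follow show the strongest intergenic summits and the words that recur at them. All are on the plus strand of genome release 6 (dm6 coordinates, RefSeq copy), written 5′ to 3′. In the first set, the bases within 50 bp of the summit are shown, and capitals mark the forkhead word GTAAACA, the AT-rich word AATATTTG or the overlapping word ATATTTGC, on either strand. The first is chr3R:16222453-16222553, the summit of the strongest intergenic peak of the list, upstream of tara. The second, chr3R:12403083-12403183, lies between the ends of Sol1 and Cyp9f2 and is nearest to the TSS of DNAlig3. The third, chr2L:9567460-9567560 beside jp, is the strongest that holds the forkhead word. The others are further members with full replicate support and a word, chr2L:2202371-2202471 near CG31668, chr3L:17658530-17658630 near CG7484 and chr3L:11354584-11354684 near CG6163.
tara: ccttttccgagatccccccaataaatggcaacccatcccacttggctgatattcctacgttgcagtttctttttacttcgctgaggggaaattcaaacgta
DNAlig3: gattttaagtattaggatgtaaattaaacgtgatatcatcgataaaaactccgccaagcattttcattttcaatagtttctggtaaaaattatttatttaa
jp: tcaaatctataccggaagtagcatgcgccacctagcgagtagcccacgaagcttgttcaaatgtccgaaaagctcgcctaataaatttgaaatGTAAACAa
CG31668: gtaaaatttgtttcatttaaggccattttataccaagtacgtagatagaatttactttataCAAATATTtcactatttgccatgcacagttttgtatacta
CG7484: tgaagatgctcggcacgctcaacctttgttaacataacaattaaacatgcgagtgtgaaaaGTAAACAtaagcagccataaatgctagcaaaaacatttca
CG6163: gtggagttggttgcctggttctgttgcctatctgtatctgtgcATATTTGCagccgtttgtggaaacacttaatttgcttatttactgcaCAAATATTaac

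A second set of sequences shows a word that faces the summit from both sides. Here 221 bases are centred on the summit, and capitals mark CACTGA, or TCAGTG where it reads on the minus strand. Shown are 3 members with CACTGA on the plus strand to the left and TCAGTG to the right, both within 110 bp. They were taken by strength, but not from every chromosome arm, so a stronger such member may exist. They are chr2L:14502684-14502904 in the gap beside noc, chr2L:3832407-3832627 between slp1 and slp2, and chrX:21593972-21594192 near GCS2alpha. The left word started 90, 87 and 83 bp before the summit.
noc: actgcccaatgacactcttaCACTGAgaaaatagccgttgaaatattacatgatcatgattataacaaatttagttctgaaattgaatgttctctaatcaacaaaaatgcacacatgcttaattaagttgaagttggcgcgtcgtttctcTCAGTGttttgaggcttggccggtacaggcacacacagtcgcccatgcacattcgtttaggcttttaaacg
slp2: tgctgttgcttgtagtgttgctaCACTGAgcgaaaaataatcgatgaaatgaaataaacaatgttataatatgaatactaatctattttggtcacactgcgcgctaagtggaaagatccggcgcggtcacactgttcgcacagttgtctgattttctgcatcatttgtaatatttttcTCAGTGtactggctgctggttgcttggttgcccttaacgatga
GCS2alpha: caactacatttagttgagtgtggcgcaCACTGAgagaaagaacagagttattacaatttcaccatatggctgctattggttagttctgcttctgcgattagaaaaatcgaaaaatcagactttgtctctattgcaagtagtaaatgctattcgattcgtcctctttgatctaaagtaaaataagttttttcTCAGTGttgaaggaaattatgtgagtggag

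Chromosome arm 3L held 158 of the members, 2L 124, 3R 117, 2R 88, X 61 and chromosome 4 held 3. Per Mb of eligible bases, the arms ranged from 11.6 on X and 11.7 on 2R to 18.4 on 2L, with 15.1 over all arms. For comparison, 1742 peaks lay in introns farther than 500 bp from a TSS and 1733 lay within 500 bp of a TSS. A further 196 summits were in exons, and 39 lay between genes but near the start of an ncRNA gene. At the edge of the rule, the closest members were 503 bp (CG3348) and 509 bp (CG42331 and CG17896) from a TSS, and the closest peaks left out were at 494 bp (Cbs) and 488 bp (Hsc70-3). Read counts were not used here, so the depth of each library is unknown, and the intervals given cover counting error only.

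The share of intergenic entries was not the same in each replicate. From each replicate's own list, as many of the strongest entries were taken as there were thresholded peaks, which are called its leading entries. By the same rule 10.9, 11.9 and 17.7% of the leading entries of replicates 1, 2 and 3 were intergenic, a mean of 13.5% ± 3.66 (SD, n = 3). Replicate 3 stood apart from the others. It had 4015 entries at a q-value of at most 0.05, against 13828 and 12616 in replicates 1 and 2, and its promoter share was lower (31.2% against 47.3 and 42.1%) and its intronic share higher (45.0% against 36.4 and 40.2%). Among the strongest 1000 entries the intergenic shares were closer together, 9.2, 10.4 and 11.5% (10.4% ± 1.15, SD, n = 3).

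A peak was called supported in a replicate when that replicate had a summit within 100 bp among its leading entries. Of the 551 members, 71.3% were supported in replicate 1, 74.4% in replicate 2 and 77.5% in replicate 3. Support in all 3 replicates was found for 255 members, or 46.3% (Wilson interval 42.2 to 50.5%), against 48.5% of all thresholded peaks. A further 178 members had support in exactly 2 replicates, 109 in 1, and 9 in none.

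Intergenic peaks were less often supported in all replicates than intronic peaks, and not detectably different from promoter peaks. For intronic peaks the share was 53.8% (odds ratio 0.738, adjusted p = 0.00329, two-sided Fisher exact test with Benjamini-Hochberg adjustment over 8 tests). For promoter peaks it was 44.5% (odds ratio 1.07, adjusted p = 0.527, Fisher exact test). The comparison with promoters changed with the replicate. Members were less often supported than promoter peaks in replicate 1 (71.3 against 79.9%, adjusted p = 0.000144) and in replicate 2 (74.4 against 80.7%, adjusted p = 0.00329), and more often in replicate 3 (77.5 against 59.3%, odds ratio 2.37, adjusted p = 1.8e-14, Fisher exact tests). Without replicate 3 the odds ratio for support in both others was 0.640 (adjusted p = 6.2e-05, Fisher exact test), so the direction turned with that library. The other way, members were more often supported than promoter peaks without replicate 1 (odds ratio 1.34, adjusted p = 0.00489) and without replicate 2 (1.35, adjusted p = 0.00482, Fisher exact tests). Against intronic peaks the call was lost without replicate 2 (odds ratio 0.839, adjusted p = 0.0984, Fisher exact test), and among the strongest 2130 thresholded peaks (odds ratio 0.937, adjusted p = 1). Peaks share the same 3 libraries, so these tests compare peaks within them.

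**Figure D1:**
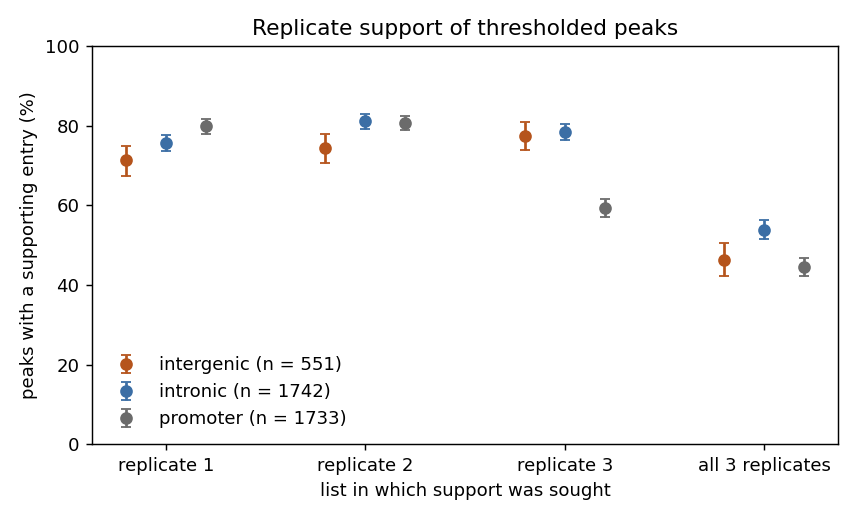
Percentage of thresholded peaks with a supporting entry, for intergenic, intronic and promoter peaks, in each replicate and in all 3 replicates. Points are shares and bars are 95% Wilson intervals, and in replicate 3 the promoter share of 59.3% lies below the intergenic share of 77.5%.

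In strength, intergenic peaks sat somewhat lower in the list. Their median rank in the thresholded list was 2424, against 2117 for intronic and 2014 for promoter peaks, and 43.2% of them were among its strongest 2130 peaks. With the list cut by strength into 5 equal parts, they made up 9.86, 13.0, 11.4, 17.0 and 13.4% from the strongest part to the weakest, without a steady rise. In each replicate the median rank of the matched entries was lower in the list than for intronic peaks, by 92.5, 453.5 and 108.5 places (mean 218 ± 204, SD, n = 3, exact sign-flip permutation test, two-sided p = 0.25). Against promoter peaks the difference was 781, 523.5 and 157.5 places (487 ± 313, SD, n = 3, exact p = 0.25). All 3 replicates gave the same direction, and 0.25 is the smallest p that 3 replicates allow. A peak without an entry within 100 bp in a replicate has no rank there and was left out. In replicate 3 a rank was found for 506 of 551 members and for 1324 of 1733 promoter peaks. Its median therefore leaves out more of the promoter peaks, and support there, which counts every peak, was higher for members (77.5 against 59.3%).

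The strongest intergenic peak lay 3148 bp upstream of the TSS of tara, which encodes taranis, a nuclear regulator of transcription and of the cell cycle. It ranked 13, 21 and 16 in replicates 1, 2 and 3, and spans chr3R:16222315-16222681. A second peak 1159 bp upstream of tara ranked 139, 99 and 173. Both lie in the 20.4-kb gap between tara and mtSSB, a mitochondrial DNA-binding protein gene, which is transcribed away from tara. That gap held 7 members, of which only these 2 were supported in every replicate.

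Next in strength was a peak in the 437-bp gap between the converging ends of Sol1 and the cytochrome P450 gene Cyp9f2, ranked 15, 7 and 34. A peak between the divergent genes jp, for junctophilin, and brwl ranked 16, 4 and 50. Both were high in every replicate and placed lowest in replicate 3. Between Su(z)2, a Polycomb group gene, and CG13323 a peak ranked 43, 57 and 52. In the 1340-bp gap between blw, which encodes a subunit of the mitochondrial ATP synthase, and CycB, which encodes cyclin B, a peak ranked 91, 74 and 76. Apart from that of jp and brwl, these gaps are convergent, so their peaks lie beyond the ends of both genes.

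Several of the 15 strongest members supported in every replicate lay beside genes for developmental regulators. A peak 581 bp upstream of sp3 and 7533 bp beyond C15, a homeodomain gene, ranked 153, 37 and 104. The strongest peak upstream of chinmo, which encodes a BTB zinc-finger protein of developing neurons, ranked 115, 134 and 199. On chromosome 4 a peak 3919 bp upstream of zfh2, a zinc-finger and homeodomain gene, ranked 103, 181 and 254. This was 1 of 3 members among the 4 thresholded peaks of that chromosome. A peak 599 bp upstream of cpo, which encodes an RNA-binding protein of the nervous system, ranked 172, 127 and 198.

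The remaining ones flanked genes with other roles. A peak between the divergent genes CG17896 and CG17778 ranked 100, 113 and 77, and one between COX7AL2 and CG31668 ranked 118, 156 and 133. A peak upstream of stck, which encodes a LIM-domain protein of integrin adhesions, ranked 108, 169 and 212. A peak upstream of RasGAP1, a Ras GTPase-activating protein gene, ranked 176, 160 and 134. The widest spread in places was at a peak 53 bp beyond the end of CG11349, ranked 143, 73 and 415. Ranks are places in lists of the same length, and the 15 were chosen on their strength, so these values are a description.

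**Figure D2:**
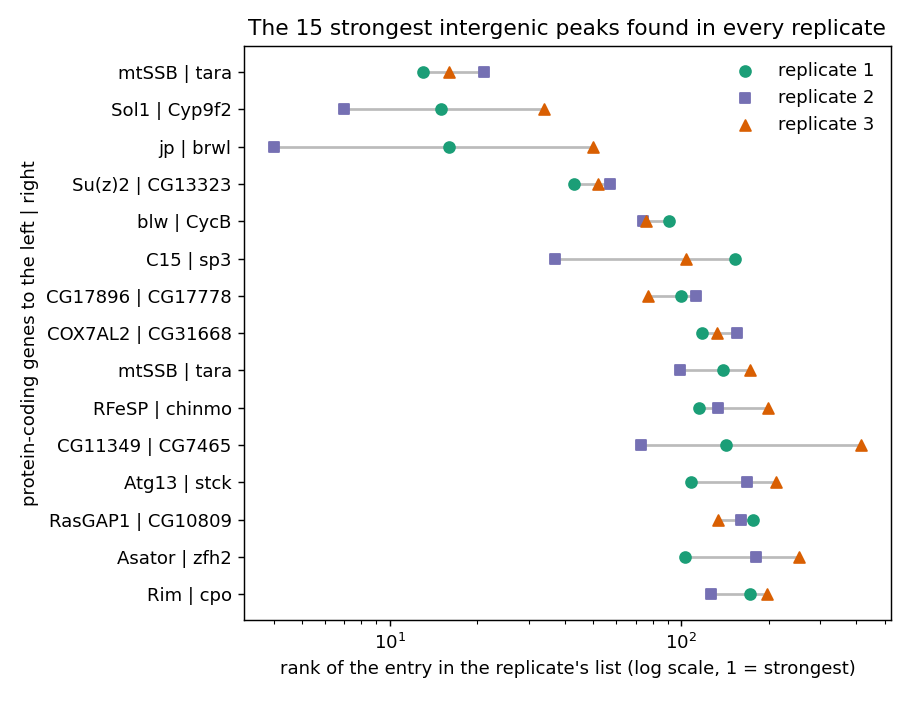
Rank in each replicate (log axis, 1 is the strongest entry) of the 15 strongest intergenic peaks supported in every replicate, labelled by the protein-coding genes to the left and right. Points are replicates and grey lines join the lowest and highest rank, which on this axis is longest at jp and brwl (4 to 50).

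Intergenic peaks were denser near genes. The median distance from a member to the nearest protein-coding TSS was 3745 bp, and the farthest was 60274 bp away. Up to 2000 bp there were 186 members, or 34.6 per Mb of eligible bases, from there to 10000 bp 230 (16.0 per Mb), and beyond 10000 bp 135 (8.09 per Mb). Of the 186 nearest, 87.1% were upstream of that TSS. For these the rule itself favours the upstream side, because the downstream side of a TSS is usually inside its gene. Farther away the upstream share was 57.0% and then 48.9%.

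Replicates differed in how far their support reached. In replicate 1 support fell from 75.3% of members at up to 2000 bp to 73.5% and then 62.2% beyond 10000 bp, and in replicate 2 from 80.6% to 74.8% and 65.2%. In replicate 3 it ran the other way, from 71.5% to 80.0% and 81.5%. No test was made of this split.

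By the orientation of the flanking genes, 180 members (32.7%, Wilson interval 28.9 to 36.7%) lay between divergent genes, which start towards the gap. That kind of gap holds 24.6% of the eligible bases between genes. Tandem gaps held 269 members (48.8%) with 52.1% of the bases, and convergent gaps held 102 (18.5%) with 23.3%. The densities were 21.1, 14.9 and 12.7 members per Mb. Gaps of up to 5 kb held 41.6 members per Mb of eligible bases, those of 5 to 20 kb 17.0, those of 20 to 50 kb 18.5, and those over 50 kb 4.24. Full replicate support was found for 42.4% of members in tandem gaps and for 50% of those in each of the others. When flanking genes of every biotype were used, the divergent share was 25.8%. The 24.6% of bases applies to gaps between protein-coding genes only, so it cannot be set beside that share.

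**Figure D3:**
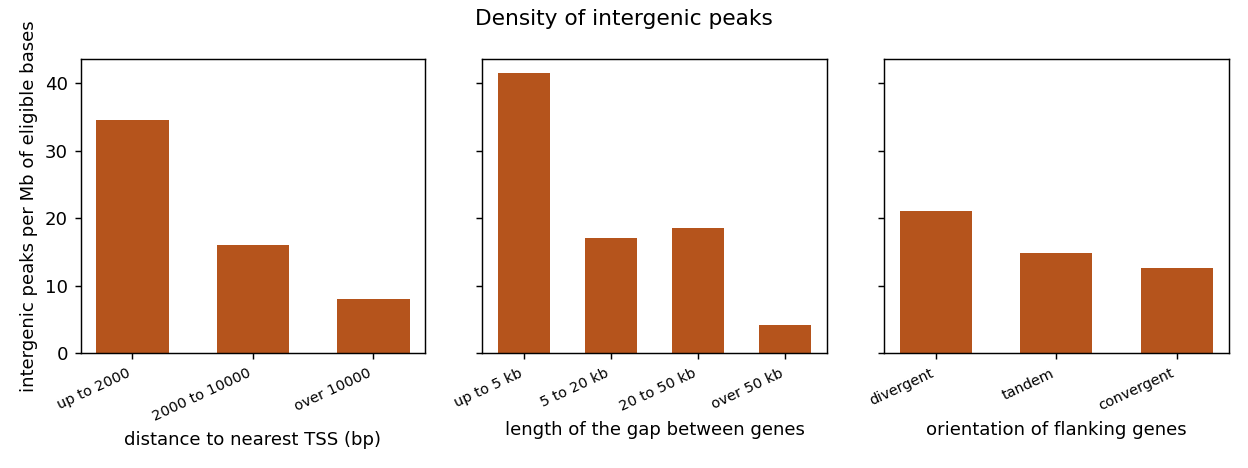
Intergenic peaks per Mb of eligible bases by distance to the nearest protein-coding TSS, by the length of the gap between the flanking protein-coding genes, and by the orientation of those genes. Bars start at 0, and the density falls from 34.6 at up to 2000 bp to 8.09 beyond 10000 bp.

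Most gaps with a member held a single member, and a few held many. Of 5576 gaps between protein-coding genes with any eligible bases, 375 held a member, 286 of them only 1, 55 held 2 and 34 held 3 or more. Those 34 gaps held 155 members, or 28.1%. The densest stretch of 100 kb was on 3L between 11300001 and 11400000, where 16 of 18 thresholded peaks were members.

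The gap between RFeSP, which encodes the Rieske iron-sulfur subunit of the respiratory chain, and chinmo held 12 members over 37.1 kb, and 11 of them were supported in every replicate. The strongest 3 had summits 2462, 7778 and 12559 bp upstream of chinmo. They ranked 115, 258 and 248 in replicate 1, 134, 139 and 161 in replicate 2, and 199, 207 and 187 in replicate 3. The lone member without full support there lay 3392 bp from RFeSP and ranked 5100 in replicate 1, outside the leading entries. None of the 12 held any of the words marked in the first set within 50 bp of the summit.

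The gap between CG6168 and CG6163 also held 12 members, over 40.3 kb of 3L, but only 5 had full support. Its strongest 2 peaks, with summits 32915 and 31500 bp from CG6168, ranked 854 and 863 in replicate 1, 485 and 860 in replicate 2, and 501 and 609 in replicate 3. The other gaps with most members were that of hng3 and CG13898 (9 members, 3 with full support), that of NijA and CG43245 (8, 6 with full support) and that of Ids and sty (8, 4 with full support). NijA encodes a ninjurin, a cell-surface protein. The gene sty encodes Sprouty, an inhibitor of receptor tyrosine kinase signalling, and Ids encodes a lysosomal sulfatase. In the NijA gap, which is 75.05 kb long, all 8 lay within 18113 bp of each other, with the nearest 37834 bp from NijA.

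**Figure D4:**
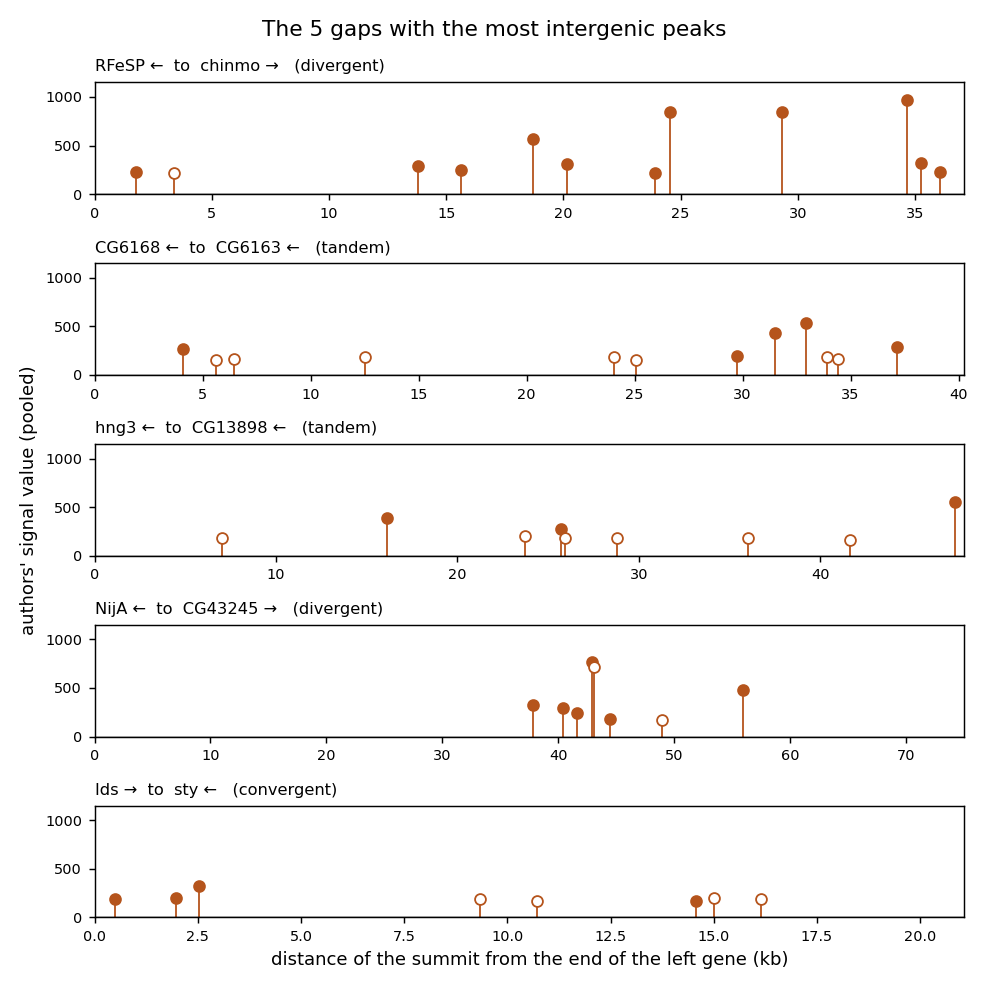
Position and height of the intergenic peaks in the 5 gaps that hold most of them. The horizontal axis is the distance of the summit from the end of the left gene in kb, the vertical axis is the authors' signal value in the pooled list, filled points had support in all 3 replicates, open points did not, and arrows give the direction of transcription. The chinmo gap has 11 filled points of 12, and the gap of CG6168 and CG6163 has 5 of 12.

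Some genes with a member in the flanking gap had a CG12071 peak at their own promoter too. The members had 705 distinct flanking protein-coding genes, which is 5.06% of all 13945. Of these 705, 146 (20.7%, Wilson interval 17.9 to 23.9%) had at least 1 peak of the thresholded list at a distance of 500 bp or less from a TSS, against 13.4% of all protein-coding genes. Among the 7202 other genes that flank eligible bases the share was 12.9%. Seen from the peaks, 313 members (56.8%) lay between genes of which neither had a promoter peak, and 25 lay between genes that both had. chinmo, tara, mtSSB, hng3 and sty had promoter peaks, and noc, RFeSP, NijA, CG6168 and CG6163 did not. No member flanked CG12071 itself.

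Genes for transcription factors were frequent among the flanking genes. Of 242 listed transcription factor and cofactor genes, 57 (23.6%) flanked a member, against 5.06% of all protein-coding genes. That 5.06% also counts genes that flank no eligible bases. Gaps with a listed factor and any eligible bases had a median of 5194.5 eligible bp, against 804 bp in the other such gaps. They flanked 107 members (19.4%), in gaps that hold 11.8% of the eligible bases between genes. The density in those gaps was 26.3 members per Mb, against 14.5 in all other gaps. Leaving out the gaps with 6 or more members (3 with a listed factor and 5 without), it was 20.5 against 13.2 per Mb. Full replicate support was found for 46.7% of the members in gaps with a listed factor. When only the gene with the nearer TSS was counted, 36 factor genes and 66 members remained.

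By family, 21 of 82 homeodomain genes flanked a member. The best placed of the listed genes were C15, the Hox gene abd-A and Rx. The peak of abd-A, 8354 bp away, ranked 239, 337 and 282. Rx shares a peak ranked 722, 904 and 928 with the actin gene Act57B. The lists are not complete. For example, zfh2, with its peak ranked 103, 181 and 254, is in none of the factor lists. Members in gaps with a homeodomain gene numbered 31, or 16.2 per Mb, near the 15.9 per Mb of all gaps. Of 35 forkhead and nuclear receptor genes 9 flanked a member, with 13 members at 29.9 per Mb. A peak 3343 bp from foxo, the forkhead factor of insulin signalling, ranked 150, 196 and 165, and the peak between the segmentation genes slp1 and slp2, shown above, ranked 203, 443 and 203.

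A list of other factors, mostly zinc-finger, GATA, T-box and Sox genes, had 23 of 75 flanking genes and 53 members, or 36.8 per Mb. That count leans on chinmo with 12 members, noc with 9 and tara, a cofactor without a zinc finger, with 7. noc encodes a zinc-finger protein of eye and tracheal development, and its best peak, 8775 bp beyond the gene, ranked 147, 319 and 147. Of 50 bHLH genes 4 (8%) flanked a member (hry, E(spl)mbeta-HLH, net and Myc), with 10 members at 35.9 per Mb.

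Signalling genes were represented as well. Of 71 listed ligands and receptors 16 (22.5%) flanked a member, each with 1 or 2 members, against 5.06% of all protein-coding genes. Their gaps held 26.4 members per Mb, against 15.9 in all gaps. The peak beside ptc, the Hedgehog receptor, ranked 977, 1272 and 617, that beside unc-5, a netrin receptor, 987, 1088 and 2240, and that beside Ser, a Notch ligand, 1821, 1498 and 2124. Thus each was placed below the strongest peaks beside tara and chinmo in every replicate. Of 29 muscle genes 5 (17.2%) flanked a member, at 26.6 per Mb, with the peak beside the Z-disc gene Zasp52 ranked 228, 182 and 355. Of 62 neuronal genes 5 (8.06%) did, at only 8.39 per Mb. The peak beside ple, for tyrosine hydroxylase, ranked 680, 164 and 558.

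Among housekeeping and terminal genes the lists differed. Of 79 ribosomal protein genes 3 flanked a member (RpLP0, RpL22 and RpL17), although 60 of the 79 had a promoter peak. That is 3.797%, below the 5.06% of all protein-coding genes, as were the cuticle genes (0 of 38) and the chemoreceptor genes (1 of 34, 2.94%). Carbohydrate and lipid metabolism genes were near it with 2 of 38 (5.26%), and heat shock and stress genes were above it with 3 of 39 (7.69%). Members per Mb of eligible bases gave another order. Metabolism genes were at 43.4, from only 3 members, and stress genes at 15.6, against 15.9 in all gaps. Ribosomal protein genes were at 5.69, chemoreceptor genes at 6.54 and cuticle genes at 0. Of 35 chromatin genes 4 flanked a member (11.4%), all of the Polycomb group (Su(z)2, Psc, ph-p and ph-d), and all 4 also had a promoter peak. These are not 4 separate places: ph-p and ph-d flank the same member. Psc and Su(z)2 have members on the same stretch of 2R, such as chr2R:12990904-12991107 beside Psc and chr2R:13015553-13015922 beside Su(z)2. The gaps beside all 35 chromatin genes together hold 0.0758 Mb of eligible bases and 6 members, or 79.2 per Mb, the highest density of the 13 lists. Genes of the lists differ in the length of their gaps, so these counts are a description.

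In base composition the members were close to intronic peaks. The median GC content within 50 bp of the summit was 37.6% for members, 36.6% for intronic and 41.6% for promoter peaks. A total of 3 members lay in an annotated transposable element. Within 500 bp of the start of a tRNA or snoRNA gene lay 10 members (9 tRNA genes and 1 snoRNA gene), of which 1 had full replicate support.

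In all, 17 short motifs were sought within 50 bp of the summit on both strands. They were the DRE (TATCGATA), the M1BP core (GGTCACAC), the GAGA repeat (GAGAGAG), and the sites of Zelda (CAGGTAG), of GATA factors (GATAAG), AP-1 (TGANTCA), CREB (TGACGTCA), STAT92E (TTCNNNGAA), forkhead (GTAAACA), nuclear receptor (AGGTCA) and homeodomain factors (TAATTA). The rest were the E-boxes CACGTG and CAGCTG, the TATA box (TATAAA), the heat shock element (GAANNTTC), a Grainyhead site (ACCGGTT) and the B box core (GGTTCGAA). The control was a window of the same width 300 bp to the right.

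Of the 17, only the forkhead word passed the test between summit and control. It was in 24 members (4.36%) at the summit and in 5 (0.907%) in the control window (exact McNemar test, adjusted p = 0.00928 over 17 motifs). The call did not hold against a control window 300 bp to the left, where 15 members (2.72%) had the word (adjusted p = 0.848, exact McNemar test), nor in windows of 25 bp to each side (adjusted p = 0.299, exact McNemar test). Of 355783 eligible windows of the same width, 1.86% held it. Of all thresholded peaks 6.64% held it, of intronic peaks 8.32% and of promoter peaks 5.31%. The difference from intronic peaks passed the test (adjusted p = 0.0240, Fisher exact test), and that from promoter peaks did not (adjusted p = 0.780, Fisher exact test). The call against intronic peaks held with windows of 100 bp and was lost in the 6 other alternatives run. The DRE, a promoter element, was in none of the members' summit windows, where a count of 0 allows a share of up to 0.544%, taken as 3 counts of the total. It was in 27 promoter windows (1.56%, adjusted p = 0.0240, Fisher exact test), a call that held with windows of 100 bp and was lost in the 6 other alternatives run.

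No 8-base word passed the threshold at member summits among 27987 tested by exact McNemar tests, with 179 at an unadjusted p under 0.05. Among the other thresholded peaks 65 of 32856 did, or 0.198%. Not all were higher at the summit, as AAAAAAAA was in 144 peaks there against 290 to the right. These are 3710 peaks against 551 members, so the counts of words passing cannot be compared directly. The word with the lowest p in the other peaks, AATATTTG, was in 3.53% of them at the summit and 0.863% to the right. Of members, 29 (5.26%) held it at the summit, 1.45% in windows to the right and 1.09% to the left. Of intronic peaks 5.05% held it, of promoter peaks 2.02%, and of eligible windows 1.71%. ATATTTGC, which overlaps it, was in 3.81% of members at the summit and in 0.544% in either control window. Of words of 6 bases, 9 of 2080 (0.433%) passed the test in members. Higher at the summit were AATATT (93 against 43 members), CAAATA (110 against 57), ATATTG (73 against 34), AGTATG (35 against 10) and GAGAAA (70 against 32). Lower at the summit were CCTGCC (9 against 38), AGGAGG (7 against 32), GGAGGA (6 against 29) and CGGGCA (4 against 24). AATATT and CAAATA are parts of AATATTTG on one strand or the other, and the lower words are rich in G and C. At least 1 of the forkhead word, AATATTTG and ATATTTGC was present in 64 members (11.6%), against 14.6% of intronic peaks, 8.37% of promoter peaks and 4.10% of eligible windows.

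In wider windows, of 100 bp to each side, a different word appeared. There 5 of 31620 words of 8 bases (0.0158%) passed the test in members. They were TCAGTGCA (31 members at the summit against 2 in the control window, adjusted p = 0.00414, exact McNemar test), CACTGAGA (33 against 4), CAGTGTAC (20 against 0), TGAGAGAA (22 against 1) and CTCAGTGC (18 against 0). The first, second and last share the core CACTGA, read on one strand or the other, and CAGTGTAC shares part of it.

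The core had a direction. Within 150 bp of the summit, 69 members had CACTGA on the plus strand to the left and 64 had it on the minus strand to the right, so that in both cases it read towards the summit. The opposite placements were found in 13 members (plus strand, right) and 18 members (minus strand, left). In all, 120 members (21.8%) had it reading inward and 31 (5.63%) reading outward. In 115639 eligible windows of the same length, taken without regard to peaks, the shares were 6.18% inward and 5.93% outward. Thus the outward share at members was near that of other eligible sequence, and the inward share was above it. Intronic peaks had CACTGA inward in 15.4% and outward in 6.54%, and promoter peaks in 11.6% and 7.56%, so the inward share was the higher one in all 3 classes.

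The longer form TGCACTGA showed the same pattern in fewer peaks. It read inward in 41 members (7.44%) and outward in 4 (0.726%), against 0.700% and 0.681% of eligible windows. Intronic peaks had it inward in 3.50% and outward in 0.344%, and promoter peaks in 1.85% and 0.404%. The word CACTGA faced the summit from both sides in 13 of the 551 members, and faced away from it on both sides in 0. The outer ends of such pairs were 113 to 234 bp apart, with a median of 161 bp. Among the 1742 intronic peaks, a larger class, there were 27 such pairs and 2 facing away, and among the 1733 promoter peaks 10 and 3. Of the 115639 eligible windows of the same length, 168 (0.145%) held an inward pair.

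Members with an inward CACTGA ranked from 152 to 4247 in the list, with a median of 2340, and 50.8% were supported in all 3 replicates, against 45.0% of the other members. Thus they were spread over most of the range of strength. The members with it on both sides include the best peak beside noc and the peak between slp1 and slp2. The words were taken from the scan of these same summits, so no test was made of the orientation or of the difference between classes.

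**Figure D5:**
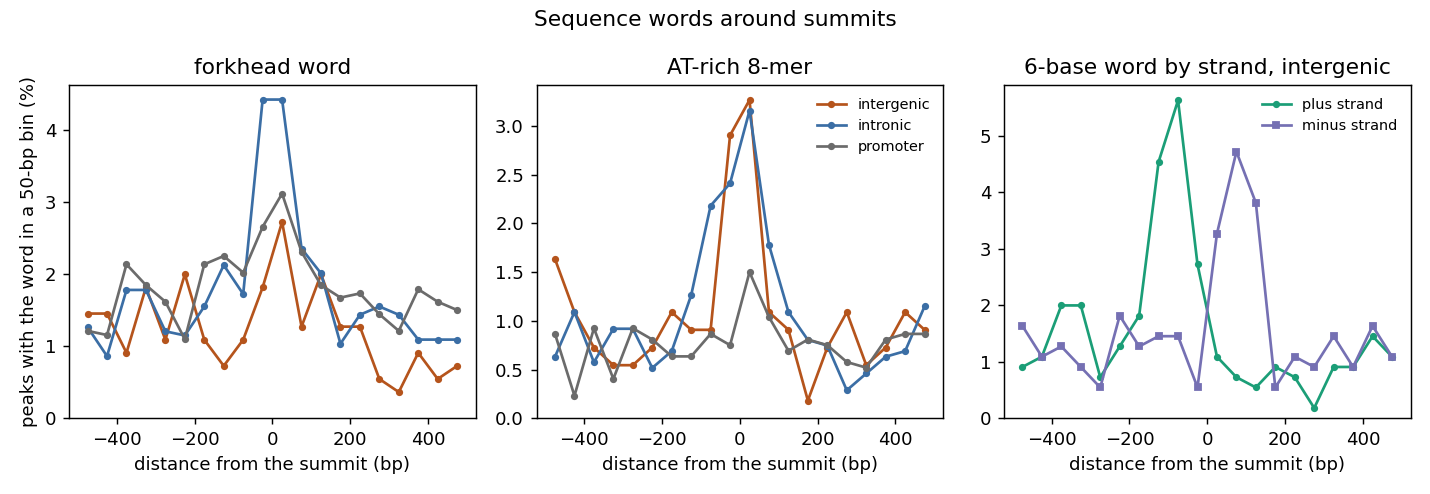
Percentage of peaks with a word starting in each 50-bp bin from 500 bp left to 500 bp right of the summit, for the forkhead word GTAAACA and the AT-rich word AATATTTG in intergenic, intronic and promoter peaks, and for CACTGA by strand in intergenic peaks. In each class the first 2 words are highest in the bin centred at 25 bp, with the bin at -25 bp equal for the forkhead word in intronic peaks. In members the forkhead word is in 2.72% at 25 bp but in 1.81% at -25 bp, below the 2.00% at -225 and at 125 bp. CACTGA on the plus strand is highest to the left of the summit (5.63% of members in the bin centred at -75 bp) and on the minus strand to the right (4.72% at 75 bp).

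Fewer intergenic than intronic peaks had another peak close by. Another thresholded summit lay within 5000 bp of 286 members (51.9%), against 62.5% of intronic and 54.2% of promoter peaks. A total of 21 members had another thresholded summit within 370 bp, the width most entries share, so these are not fully separate stretches of DNA.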

How the data were processed

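Peak lists were analysed for 3 biological replicates of 1 group of embryos. The authors deposited, in dm6 coordinates per the labels, 30000 entries for each replicate and for the pooled replicates, and a shorter list of entries that passed their threshold on reproducibility. Chromatin was sheared by sonication to 200 to 800 bp, per the labels. The aligner and the peak caller are not given in the sources used here. Each deposited entry has a signal value (a score whose scale is the authors' own), a −log10 q-value and an offset of the summit from its start. The lists hold no read counts, so depth is unknown. Labels describe each sample both as an input control and as antibody ChIP, and it was taken as ChIP. The annotation was Ensembl release 115 (BDGP 6.54), and sequence came from the RefSeq copy of genome release 6.

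Entries were ranked by signal within each list, and each summit was classed by position. Support was sought within 100 bp, and words within 50 bp, with a control window 300 bp away. Tests were the Fisher exact test, the exact McNemar test and the exact sign-flip permutation test over replicates, two-sided, with Benjamini-Hochberg adjustment and a threshold of 0.05. The software was Python 3.11.15 with SciPy 1.17.1 for the tests, statsmodels 0.14.6 for the adjustment, pandas 2.3.3 with NumPy 2.4.6 for the tables and matplotlib 3.10.9 for the plots. The word scan was tested on simulated data. The position rule, gene lists and motifs were chosen with earlier results of these data known. Genes named are those flanking the 15 strongest supported members and the 5 gaps with most members, and up to 3 per list with 5 or more flanking genes. Others, such as the members of short counts and the CACTGA word, were chosen after their values were seen. Of 692 listed gene symbols 667 were in the annotation.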

Additional observations from a re-analysis of the deposited data

How the results depend on the processing

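No paired analysis was possible because there was only 1 group of samples. Where replicates were left out for the words, the orientation and the flanking genes, and where RNA gene starts of all kinds were used, the alternative was chosen after seeing the data.

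The intergenic share of thresholded peaks was 16.2% with a TSS distance of 250 bp, 10.2% with 1000 bp, 14.2% when a summit had to be outside protein-coding genes only, 11.2% among the strongest 2130 thresholded peaks, and 11.3 to 13.3% with 1 replicate left out. Full replicate support of members was 38.5% with summits within 50 bp, 85.7% in the strongest 2130, and 55.7 to 58.6% with 1 replicate left out. The odds ratio against intronic peaks was 0.937 in the strongest 2130 and 0.700 to 0.839 with 1 replicate left out, no longer past the threshold without replicate 2. Against promoter peaks it was 1.27 with 250 bp, 1.73 in the strongest 2130, and 0.640 to 1.35 with 1 replicate left out. All of these passed the threshold, which the main value of 1.07 did not, and only the value without replicate 3 reversed. Support in replicate 3 alone, against intronic peaks, reversed to 1.02 with summits within 200 bp, 1.08 with a TSS distance of 1000 bp and 1.16 in the strongest 2130, and passed the test in none of these.

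The count of motifs that differed between summit and control went from 1 to 0 with windows of 25 bp, with the control to the left, in the strongest 2130, among peaks with full support and without replicate 1. The forkhead word's excess at the summit, 3.45 percentage points, was 1.63 with 25 bp and also 1.63 with the left control, 4.20 in the strongest 2130, 3.92 with full support and 2.79 to 4.79 with 1 replicate left out, no longer past the threshold in the first 4 and without replicate 1. Its difference from intronic peaks, -3.97 points, was -2.53 with 25 bp, -3.93 in the strongest 2130, -4.04 with full support and -4.16 to -3.44 with 1 replicate left out, none past the threshold. The DRE difference from promoter peaks lost its call in the same 6 settings. Fewer peaks are tested in the strongest 2130, with full support and with a replicate left out; for the other settings the cause was not tested. The 8-base words that passed rose from 0 to 5 in windows of 100 bp, and 9 words of 6 bases passed.

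The divergent share was 25.8% with flanking genes of all biotypes, which also changes the gaps and the bases they hold. Flanking genes with a promoter peak were 16.9% with 250 bp, 25.6% with 1000 bp, 11.1% in the strongest 2130, 10.2% with full support and 10.1 to 15.3% with 1 replicate left out, against 10.5, 16.6, 7.54, 6.52 and 6.999 to 9.59% of all genes. The listed factor genes numbered 36 by the nearer TSS only. The differences in median rank of matched entries kept their direction in every alternative run. The mean intergenic share of the leading entries, 13.5%, ranged from 10.4 to 16.6%. The depth of the libraries is not known, which limits what a missing entry shows.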
